A study of Mus musculus with 30 samples.

Results

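The genes described here are 48 genes of the muscle sarcomere and of the muscle side of the neuromuscular junction, followed in mouse forelimb buds after inhibition of WNT secretion. They were chosen by gene symbol from the deposited FPKM table and joined by Ensembl identifier to a count table of 50833 genes, and all 48 were found. Of these, 47 had 10 or more counts in total, and Tnnc2 had 3. All embryos were wild-type Swiss Albino and were exposed through a single intraperitoneal injection of the pregnant female at E10.5, with C59 or with DMSO. Per the study's methods, C59 was diluted in a vehicle of PBS, methylcellulose, Tween and DMSO, while controls received DMSO in PBS. The controls thus received DMSO but not the whole vehicle, and drug and vehicle cannot be told apart. C59 (WNT-C59) blocks porcupine, the enzyme that adds the lipid WNT ligands need for secretion. Forelimb buds were collected 1, 6, 12, 18 and 24 h later, with 3 libraries per treatment and time (30 in all), each made from the polyA RNA of 1 pair of buds. Exposure was systemic, and the buds were sequenced whole, so muscle RNA was measured together with all other bud RNA, and fewer muscle cells and less RNA per muscle cell cannot be told apart.

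Limb muscle comes from progenitors that leave the somites, enter the bud, and then switch on MYOD1 and MYOG, exit the cell cycle and begin to make contractile protein. In the sarcomere, actin thin filaments nucleated by leiomodin and bound by nebulin and troponin slide along myosin thick filaments, titin spans from the Z-disc to the M-band, and alpha-actinin anchors actin at the Z-disc. Calcium released through the ryanodine receptor starts contraction and the SERCA pump (Atp2a1) ends it. On the postsynaptic side, the acetylcholine receptor subunits (Chrna1, Chrnb1, Chrnd and, in the embryo, Chrng) are gathered by rapsyn (Rapsn) downstream of the kinase MUSK.

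Promoters are shown for 5 genes among the members with an entry in the RefSeq promoter windows (GRCm38.p6). These were called between treatments at the most time points, ties going to the lowest adjusted p at 12 h. They were thus chosen by their values. Of the 48 genes, 35 had a window, and Cacng1, Tcap, Xirp1, Lmod3, Myom2, Tnnt3, Actn3, Tnni2, Trdn, Rapsn, Chrnd, Cryab and Neb had none. The stretches run 5′ to 3′ toward the RefSeq start site, with bases that GENCODE counts as exon left out. RefSeq and GENCODE starts can differ, and distances are given to the RefSeq start. Capitals mark CAGCTG (an E-box of the kind that MYOD1 and MYOG bind), CATTCC (the MCAT motif of TEAD factors), TATAAA, the MEF2 site and the CArG box, each searched on both strands. Myh15 is printed from chr16:49057150-49057399 (plus strand), Myl1 from chr1:66945144-66945290 (minus), Mylpf from chr7:127211358-127211607 (plus), Acta1 from chr8:123894776-123895025 (minus) and Atp2a1 from chr7:126463109-126463323 (minus).
Myh15: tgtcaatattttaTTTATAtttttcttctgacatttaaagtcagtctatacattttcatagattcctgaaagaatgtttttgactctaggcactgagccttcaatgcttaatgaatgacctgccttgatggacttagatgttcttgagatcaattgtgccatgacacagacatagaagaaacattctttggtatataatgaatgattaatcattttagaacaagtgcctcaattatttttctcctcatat
Myl1: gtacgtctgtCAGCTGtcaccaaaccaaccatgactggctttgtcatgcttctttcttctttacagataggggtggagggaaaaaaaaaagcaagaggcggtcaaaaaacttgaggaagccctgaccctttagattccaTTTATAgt
Mylpf: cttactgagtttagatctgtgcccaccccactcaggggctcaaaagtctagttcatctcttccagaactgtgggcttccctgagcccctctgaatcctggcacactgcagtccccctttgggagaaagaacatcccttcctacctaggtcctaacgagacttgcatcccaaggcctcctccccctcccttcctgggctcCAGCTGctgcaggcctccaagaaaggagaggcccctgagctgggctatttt
Acta1: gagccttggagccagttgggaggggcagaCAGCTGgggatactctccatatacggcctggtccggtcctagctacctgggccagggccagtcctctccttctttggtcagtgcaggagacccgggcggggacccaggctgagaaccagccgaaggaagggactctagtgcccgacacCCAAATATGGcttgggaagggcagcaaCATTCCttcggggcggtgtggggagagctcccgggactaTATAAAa
Atp2a1: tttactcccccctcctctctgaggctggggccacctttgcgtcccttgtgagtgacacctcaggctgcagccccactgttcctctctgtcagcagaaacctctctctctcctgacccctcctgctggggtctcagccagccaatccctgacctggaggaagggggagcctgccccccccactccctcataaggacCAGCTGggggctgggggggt

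The 4 genes of these 5 that rose after C59 each held a CAGCTG. It began 51 bases before the RefSeq start in Mylpf, 55 in Atp2a1, 221 in Acta1 and 224 in Myl1. GENCODE places Myl1 at 66924295 to 66945404 (minus strand) and Mylpf at 127208890 to 127214298 (plus strand). By these coordinates the printed stretches of Myl1 and Mylpf, with their CAGCTG, lie inside the gene and not upstream of it. Myh15, which fell, held none in its 250 bases and had only a TATAAA on the other strand. With only 1 printed gene that fell, picked like the others by its values, whether a motif goes with direction was not tested. Acta1, skeletal alpha-actin, also held a CArG box, the serum response factor motif, 73 bases before the start. Over the 250 bases before each start, CAGCTG was present in 38.5% of the 39 windows of these genes and in 13% of all 32851 windows. The CArG box was in 12.8% against 1.47%, the MEF2 site in 12.8% against 2.92%, CATTCC in 20.5% against 12.6%, and TATAAA in 23.1% against 12.4%. A match of letters is a description of the window and does not show that a factor binds there.

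Libraries held 18188636 to 38974885 counts. Levels are given as CPM, counts scaled to library size with TMM factors, with the values of replicates 1 to 3 in that order. Axin2, a direct WNT target, was 108, 118 and 104 CPM in the controls and 29, 29.2 and 26.5 CPM after C59 at 6 h. At 12 h it was 112, 110.1 and 110.2 CPM in the controls and 38.9, 38.6 and 43.7 CPM after C59. The groups did not overlap at either time, and at 24 h the log2 difference was -0.08 ± 0.07 (adjusted p = 0.507). For these genes DMSO 12 h replicate 2 stood apart, being the highest of its group for 37 of the 40 genes that averaged above 1 CPM, while it was highest for 36.4% of all 12542 such genes. C59 24 h replicate 3 was likewise highest for 36 of 40, C59 12 h replicate 2 for 30 and C59 18 h replicate 3 for 29. C59 18 h replicate 1 was lowest for 33, DMSO 1 h replicate 1 for 30 and DMSO 24 h replicate 2 for 29. Over all genes other libraries lay farther from their groups: DMSO 1 h replicate 1, DMSO 6 h replicate 1, DMSO 18 h replicate 1, C59 18 h replicate 3 and C59 24 h replicate 2 differed from both partners by a chi-square per degree of freedom of 20.8 to 42.2, against 4.83 and 6.44 for DMSO 12 h replicate 2. RNA of 4 Y-linked genes was near 0 in all DMSO 6 h libraries and 19.8 to 33.2 summed FPKM in all C59 6 h libraries, so embryo sex and treatment cannot be told apart at 6 h. At 1 h the sums were 7.66, 9.03 and 0.0469 FPKM in DMSO and 37, 38.2 and 21.2 FPKM in C59-treated libraries, again lower in every control. DMSO 12 h replicate 2 was the only control with such RNA at 12 h (38.6 FPKM). The C59 12 h libraries held 18.8, 0.108 and 0.417 FPKM. At 18 h the sums were 0.094, 21 and 0.0195 FPKM in DMSO and 0.0682, 19.7 and 24.2 FPKM in C59-treated libraries. DMSO 18 h replicate 2 was the highest of its group for 26 of the 40 genes. At 24 h the sums were 20.1, 0.0147 and 19.6 FPKM in DMSO and 20.1, 25 and 19.3 FPKM in C59-treated libraries. Whether embryo sex goes with the levels of the members was not tested. Of the 6 heart markers Myl7, Nppa, Nppb, Tnni3, Myl2 and Nkx2-5, Nppb had 0 counts, Nppa 2 and Nkx2-5 3 over all libraries, and their sum was 0.841 to 3.08 CPM in every library.

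The members' mean summed level was lowest at 1 h and highest at 24 h in both treatments. Summed over the 48 genes, DMSO libraries held 67.5 to 108 CPM at the first time, then 99.1 to 125 (6 h), 114 to 276 (12 h), 405 to 492 (18 h) and 796 to 981 CPM (24 h). C59-treated libraries held 75.7 to 84.9, 78.6 to 151, 326 to 437, 516 to 791 and 1326 to 1873 CPM at the same times. The ratio of group means, C59 over DMSO, was 0.901 ± 0.212 and 1.03 ± 0.368 at the first times, 2.19 ± 1.26 at 12 h, then 1.496 ± 0.352 (18 h) and 1.71 ± 0.381 (24 h), with propagated SD and n = 3 per group. The groups overlapped at 1 and 6 h and did not overlap from 12 h on, although at 18 h they overlapped when each gene was given equal weight.

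**Figure D1:**
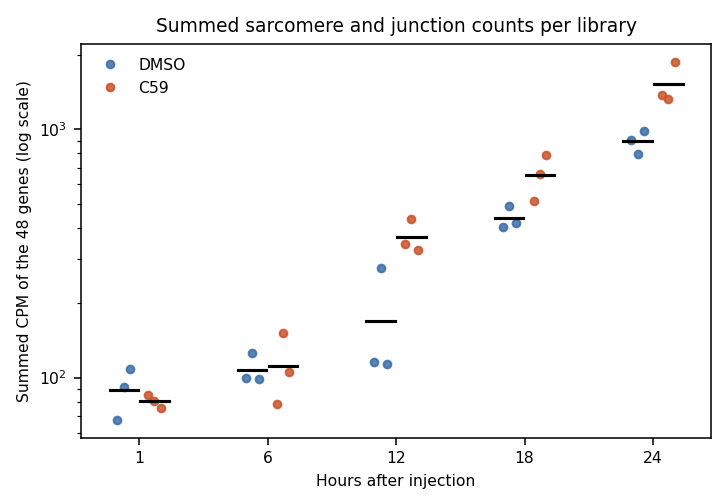
Summed CPM of the 48 genes (vertical log axis) in each library against hours after injection; points are libraries and black bars group means. C59-treated libraries lie above the controls at 12, 18 and 24 h, and at 12 h one control library, at 276 CPM, lies far above the other two.

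Per length, the leading genes changed as muscle formed. At 1 h the highest mean FPKM in DMSO libraries belonged to Myl6b, an essential light chain also made outside muscle, at 5.51 ± 0.223 FPKM (SD, n = 3), ahead of Actc1, cardiac alpha-actin and the main actin of embryonic skeletal muscle, at 3.56 ± 1.88 FPKM. Actc1 ran from 1.71 to 5.46 FPKM over the 3 libraries and Myl6b from 5.27 to 5.72, so these neighbours overlapped. At 24 h Actc1 led at 107 ± 14 FPKM in DMSO and 182 ± 24.1 in C59-treated buds, followed in DMSO by Tnnt1, slow troponin T, at 55.2 ± 5.9 FPKM and the fast regulatory light chain Mylpf at 39.9 ± 5.26. After C59 the order of these last genes was turned, with Mylpf at 90.3 ± 18 and Tnnt1 at 63.5 ± 5.51 FPKM.

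Between 1 and 24 h, 43 of the 44 genes tested rose in DMSO buds and none fell, where 12% of all tested genes passed in either direction. A gene was called when its adjusted p was below 0.05 and its log2 difference beyond 1. In C59-treated buds 44 of 46 rose and none fell, beside 13.6% of all genes. The median log2 difference over the tested members was 3.79 in DMSO and 4.71 in C59-treated buds. At 1 h only 29 members passed the filter on low counts. The others entered these tests through the 24 h libraries, where they were high, so for them the filter fixed a rise in advance. Examples in DMSO are Myom2, with 1 count at 1 h and 185 at 24 h, and Rapsn, with 3 and 514. These genes are part of the counts and medians given here. Actc1 rose by 4.8 ± 0.20 on the log2 scale (SE) in DMSO and by 5.95 ± 0.13 after C59, Acta1 by 4.14 ± 0.31 and 6.48 ± 0.22, and embryonic myosin Myh3 by 3.97 ± 0.26 and 5.66 ± 0.21. Musk had 0 counts in DMSO at 1 h and 320 at 24 h, at least 108-fold higher against a floor of 3 counts over the group. Ryr1, the ryanodine receptor, rose by 1.05 ± 0.09 and 1.22 ± 0.10. Myl6b did not pass in DMSO at 0.27 ± 0.12 (adjusted p = 0.0714) and stayed under the fold threshold after C59 at 0.74 ± 0.11 (adjusted p = 7.66e-05). Actn3, fast-fiber alpha-actinin, rose by 2.3 ± 0.15 in DMSO and measured 0.92 ± 0.35 (adjusted p = 0.0406) after C59, under the fold threshold.

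At 1 and 6 h none of the members was called. At 1 h 29 passed the filter on low counts, with a median log2 difference of -0.16 and 2 at an unadjusted p below 0.05, where 0.283% of all genes were called. At 6 h 34 passed, with a median of 0.05 and 6 at an unadjusted p below 0.05, beside 1.17% of all genes. DESeq2 and the fits to FPKM values also called 0 at these times. Leaving out DMSO 1 h replicate 1 gave 2 calls at 1 h, and at 6 h there were 2 without C59 replicate 1 and 1 without DMSO replicate 1 or 2. Past the adjusted p but under the fold threshold at 6 h were Chrna1 and Mybpc1, slow myosin-binding protein C, at -0.88 ± 0.16 (adjusted p = 0.00167), both lower, and Atp2a1, higher at 0.81 ± 0.15 (adjusted p = 0.00222). Of the regulators that switch these genes on, Myod1 was 13.5, 13.1 and 15.3 CPM in the controls and 41.2, 41.3 and 33 CPM after C59 at 6 h, a log2 difference of 1.46 ± 0.10 (adjusted p = 3.91e-07). Myog was 10.6, 11.6 and 10.7 CPM in the controls and 20.3, 27.1 and 19.9 CPM after C59, at 1.03 ± 0.12 (adjusted p = 5.98e-05), and both regulators stood wholly above the controls. Of 23 regulators of muscle identity and fusion, 20 were tested at 6 h, 3 rose and 0 fell, with a median of 0.12. The progenitor factor Pax3 went the other way, at -0.80, and was not called. It was 22.3, 22 and 22.7 CPM in the controls and 10.9, 13 and 14.8 CPM after C59, without overlap. Actc1 was then 9.22, 13.2 and 8.09 CPM in the controls and 2.5, 17.3 and 8.42 CPM after C59, with overlapping groups.

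At 12 h, 17 of the 40 members tested were higher after C59 and 1 was lower, 45.0% of those tested where 4.95% of all genes were called. The difference was positive for 36 of the 40, with a median of 1.04, beside 0.02 over all genes. C59-treated libraries lay wholly above the controls for 20 of the 40 members, where 27.2% of all genes did so. Without DMSO 12 h replicate 2 the count was 28, with 27 higher and 1 lower. Of the 18 calls, 13 were kept whichever library was left out.

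In the thin filament, 3 of 4 genes rose at 12 h. Actc1 was 11.9, 45 and 11.6 CPM in the control libraries and 80.8, 95.8 and 74 CPM in the C59-treated libraries, a log2 difference of 1.88 ± 0.39 (adjusted p = 0.0025). Neb, nebulin, the ruler along the actin filament, was 1.9, 5.34 and 1.98 CPM in the control libraries and 6.54, 19.3 and 8.74 CPM in the C59-treated libraries, at 1.93 ± 0.45 (adjusted p = 0.00514). Lmod3, a leiomodin that nucleates actin at the pointed end, was 0.0499, 1.11 and 0.113 CPM in the control libraries and 1.42, 1.68 and 1.47 CPM in the C59-treated libraries, at 1.86 ± 0.66 (adjusted p = 0.0374). For all 3 the highest control was DMSO replicate 2, and even that library lay below every treated one. Of the 6 fits that left a library out, Lmod3 kept its call only in the one without that control. It kept the call in 8 of 10 other alternative fits. Acta1 was not called at 12 h. It was 0.25, 5.29 and 0.509 CPM in the control libraries and 1.96, 2.98 and 2.67 CPM in the C59-treated libraries, at 0.36 ± 0.74 (adjusted p = 0.708), its highest value being in DMSO replicate 2.

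Among the troponins, which make the thin filament answer to calcium, 3 of 6 tested rose. The fast inhibitory subunit Tnni2 was 0.599, 0.334 and 0.339 CPM in the control libraries and 2.07, 1.35 and 1.1 CPM in the C59-treated libraries, at 1.78 ± 0.40 (adjusted p = 0.00392). Cardiac-type troponin T, Tnnt2, which embryonic skeletal muscle also makes, was 0.749, 3.17 and 0.962 CPM in the control libraries and 4.79, 4.79 and 4.55 CPM in the C59-treated libraries, at 1.55 ± 0.40 (adjusted p = 0.00911). Slow troponin T, Tnnt1, was 13.5, 22.7 and 11.2 CPM in the control libraries and 32.5, 34.6 and 28.2 CPM in the C59-treated libraries, at 1.01 ± 0.20 (adjusted p = 0.00181), and dropped under the fold threshold when DMSO replicate 1, DMSO replicate 3 or C59 replicate 2 was left out. In none of the 3 did the groups overlap. Tnnc1, Tnni1 and Tnnt3 measured 1.06, 0.24 and 0.35 and were not called.

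The thick filament responded in part. The alkali light chain Myl1 was 1.5, 5.84 and 2.04 CPM in the control libraries and 9.32, 11.1 and 6.9 CPM in the C59-treated libraries, at 1.56 ± 0.39 (adjusted p = 0.00703). Mylpf was 3.69, 12 and 4.07 CPM in the control libraries and 11.8, 14.1 and 13.5 CPM in the C59-treated libraries, at 1.01 ± 0.34 (adjusted p = 0.0334). Mylpf was the one called gene whose groups overlapped, since DMSO replicate 2 reached the lowest treated library, and its call was lost in 4 of the 6 fits that left a library out. Myh3 was 2.05, 20.8 and 2.83 CPM in the control libraries and 17.2, 21.4 and 14.9 CPM in the C59-treated libraries, at 1.08 ± 0.60 (adjusted p = 0.163), again with DMSO replicate 2 inside the treated range. Of the heavy chains none rose, and Myh15 fell (described further on).

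Titin and Actn3 had the largest called increases at 12 h among the members. Ttn was 2.84, 8.02 and 1.98 CPM in the control libraries and 11.6, 36.1 and 13.7 CPM in the C59-treated libraries, at 2.28 ± 0.51 (adjusted p = 0.00397), with C59 replicate 2 far above its group. Actn3 was 1.25, 6.23 and 1.75 CPM in the control libraries and 10.1, 15.5 and 10.02 CPM in the C59-treated libraries, at 1.97 ± 0.43 (adjusted p = 0.00342). Cryab, the small heat shock protein alpha-B crystallin that protects desmin and titin, was 0.699, 1.56 and 0.566 CPM in the control libraries and 2.56, 2.06 and 1.89 CPM in the C59-treated libraries, at 1.2 ± 0.36 (adjusted p = 0.0192). These groups did not overlap, and Cryab lost its call without DMSO replicate 1, DMSO replicate 3 or C59 replicate 1. Klhl41, a Kelch protein that stabilizes nebulin and other thin filament proteins, was 2.79, 7.35 and 2.6 CPM in the control libraries and 13.9, 19.3 and 13.4 CPM in the C59-treated libraries, at 1.88 ± 0.32 (adjusted p = 0.000677). Smyd1, a methyltransferase that works with the myosin chaperone UNC45B, was 1.25, 5.12 and 2.6 CPM in the control libraries and 9.64, 8.66 and 8.05 CPM in the C59-treated libraries, at 1.57 ± 0.34 (adjusted p = 0.00341). Klhl41 and Smyd1 stood wholly above the controls. Unc45b itself measured 1.65 and Mybph, myosin-binding protein H, 1.42, and neither passed the adjusted p. Des, desmin, the intermediate filament that links Z-discs, was 3.54, 10.8 and 4.41 CPM in the control libraries and 11.2, 11.5 and 11.7 CPM in the C59-treated libraries, at 0.89 ± 0.31 (adjusted p = 0.0372), under the fold threshold, with the groups apart.

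Of the calcium genes, Atp2a1 was 10.53, 14.8 and 9.33 CPM in the control libraries and 27, 30.6 and 24.6 CPM in the C59-treated libraries, at 1.25 ± 0.15 (adjusted p = 7.34e-05), the lowest adjusted p of all members at 12 h. Its groups did not overlap and its call was kept in every other fit. Atp2a1 shares 763 exonic bases with Rabep2 on the other strand, Cryab 252 with Hspb2, Ttn 453 with Gm13938, and Mybph 1162 with Adora1. The study computed FPKM with the libraries taken as unstranded, and the strand setting of the counts is not given in the sources used here, so reads in these bases may belong to either gene.

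Markers of other tissues moved at 12 h too. Of 8 smooth muscle markers 6 were tested and 2 rose, Acta2 by 1.48 and Myocd by 2.19. Their sum was 69.2 to 84.8 CPM in DMSO and 111 to 130.3 CPM in C59-treated libraries, while Myh11, the myosin of mature smooth muscle, averaged 0.357 and 0.526 CPM. Of 6 nerve and Schwann cell precursor markers 5 were tested and 2 rose, among them Erbb3 by 1.23, with sums of 53.6 to 70.8 and 109 to 131 CPM. All 5 cartilage markers were tested and 3 rose, with sums of 949.7 to 1007 and 1764 to 2468 CPM. Of 4 limb mesenchyme markers 2 fell, with sums of 1509.9 to 1589 and 1009.9 to 1076 CPM. Of 5 endothelial and 4 ectoderm markers none was called, with sums of 261 to 285 against 328 to 362 CPM and of 176 to 192 against 254 to 340.2 CPM. In none of these 6 lists did the summed levels of the groups overlap at 12 h, while heart, trunk and erythroid sums overlapped. At 18 h the sums of cartilage (1062 to 1249 against 1683 to 1979 CPM), nerve (85.9 to 96.1 against 105 to 124 CPM), ectoderm (180.5 to 193 against 244 to 279 CPM) and trunk markers (30.02 to 33.3 against 38.4 to 44.6 CPM) were higher after C59 without overlap, and 1 limb mesenchyme marker was called lower. At 24 h cartilage (1335 to 1498 against 1643 to 1831 CPM) and ectoderm sums (212 to 213 against 247 to 283 CPM) were higher and endothelial sums (282 to 286 against 239 to 260.3 CPM) lower without overlap, and 1 nerve and 1 cartilage marker were called higher. The part of these markers in the differences of the members was not tested.

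At 18 h fewer members were called than at 12 h. Tests of the change between these times are given further on. Of 42 members tested, 3 were higher and 1 lower, 9.52% where 1.29% of all genes were called, and the median difference was 0.43. Myh7, slow or beta myosin heavy chain, was 0.325, 0.803 and 0.432 CPM in the control libraries and 2.29, 2.0 and 2.83 CPM in the C59-treated libraries, at 2.08 ± 0.34 (adjusted p = 0.00997), with every treated library above every control. Unc45b was 3.25, 4.31 and 3.08 CPM in the control libraries and 5.71, 7.09 and 8.82 CPM in the C59-treated libraries, at 1.02 ± 0.21 (adjusted p = 0.025). Acta1 was 5.84, 6.26 and 5.94 CPM in the control libraries and 7.9, 12.4 and 18.9 CPM in the C59-treated libraries, at 1.13 ± 0.27 (adjusted p = 0.0417). C59 replicate 1 was the lowest treated library for Unc45b and Acta1, and the groups stayed apart for both. The count was 8 without C59 18 h replicate 1, 2 without DMSO 18 h replicate 1 or C59 18 h replicate 2, and 1 without DMSO 18 h replicate 3, and only the Myh15 call was kept in all 6 of these fits. The fit to log2(FPKM + 1) called none. Myh7 shares 523 exonic bases with the antisense transcript Mhrt.

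Other members lay near the threshold at 18 h. Actc1 was 91.1, 104 and 91.5 CPM in the control libraries and 114, 163 and 215 CPM in the C59-treated libraries, at 0.80 ± 0.20 (adjusted p = 0.0447). Myh3 was 26.9, 42.6 and 30.6 CPM in the control libraries and 50.8, 62.1 and 69.6 CPM in the C59-treated libraries, at 0.88 ± 0.18 (adjusted p = 0.0237). Ttn was 9.68, 31.4 and 17.8 CPM in the control libraries and 51.4, 42.2 and 41.1 CPM in the C59-treated libraries, at 1.19 ± 0.33 (adjusted p = 0.0658), with DMSO replicate 2 high. In these 3 the groups did not overlap, which held for 15 of the 42 members tested in the higher direction, where 15% of all genes did so. Des was 9.68, 11.9 and 9.62 CPM in the control libraries and 12.2, 12.8 and 20.04 CPM in the C59-treated libraries, at 0.54 ± 0.20 (adjusted p = 0.142).

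At 24 h, 14 of 46 members tested were higher and 2 lower, 34.8% where 0.819% of all genes were called. The difference was positive for 43 of the 46, with a median of 0.77, and 31 of the 46 stood wholly above the controls, where 12.8% of all genes did so. Called at both 12 and 24 h were 5 genes, Actn3, Cryab, Myl1, Mylpf and Myh15, of 18 at 12 h and 16 at 24 h, with Actn3 in opposite directions. Whether effects differed between 12 and 24 h was not tested. Of the 16 calls, 10 were kept whichever library was left out, and without C59 24 h replicate 3 the count was 10, with 9 higher.

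Acta1 was the thin filament gene with the largest increase at 24 h, at 21.3, 15.7 and 28.6 CPM in the control libraries and 59.99, 54.8 and 81.2 CPM in the C59-treated libraries, a difference of 1.58 ± 0.18 (adjusted p = 0.000362). Actc1 was 198, 181 and 234 CPM in the control libraries and 313, 312 and 402 CPM in the C59-treated libraries, at 0.75 ± 0.10 (adjusted p = 0.00149), past the adjusted p but under the fold threshold. In both the groups stood apart, and C59 replicate 3 was the highest. Neb measured 0.00 at 24 h and Lmod3 0.65.

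Both slow and fast troponins rose at 24 h, 3 of the 6 tested. Tnnc1, slow and cardiac troponin C, was 16.4, 15.1 and 19.4 CPM in the control libraries and 47, 37.8 and 57 CPM in the C59-treated libraries, at 1.48 ± 0.14 (adjusted p = 8.73e-05). Tnni1, slow troponin I, was 18.8, 16.7 and 22.2 CPM in the control libraries and 42.7, 37.9 and 56.8 CPM in the C59-treated libraries, at 1.25 ± 0.14 (adjusted p = 0.000285). Tnnt3, fast troponin T, was 3.09, 4.41 and 5.39 CPM in the control libraries and 8.87, 9.31 and 14.6 CPM in the C59-treated libraries, at 1.33 ± 0.22 (adjusted p = 0.00411). No group overlapped another in these 3 genes. Tnnt1, Tnnt2 and Tnni2, the 3 troponins of 12 h, measured 0.20, 0.85 and 0.66 and were not called.

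Of the 4 myosin light chains 3 rose. Myl4, the embryonic and atrial light chain, was 12.7, 9.8 and 15.7 CPM in the control libraries and 31.2, 31.3 and 47.4 CPM in the C59-treated libraries, at 1.53 ± 0.18 (adjusted p = 0.000374). Mylpf was 41.6, 33.8 and 43.8 CPM in the control libraries and 82.3, 72.7 and 109.8 CPM in the C59-treated libraries, at 1.156 ± 0.13 (adjusted p = 0.000374). Myl1 was 33.3, 29.8 and 37.7 CPM in the control libraries and 65.7, 62.6 and 85.7 CPM in the C59-treated libraries, at 1.09 ± 0.12 (adjusted p = 0.000232). The treated libraries stood above the controls in each, though Mylpf and Myl1 fell under the fold threshold, at 0.98 and 0.95, without C59 replicate 3. Myl6b measured 0.42. Among heavy chains, the perinatal Myh8 was 6.38, 4.84 and 6.02 CPM in the control libraries and 10.7, 9.27 and 16.3 CPM in the C59-treated libraries, at 1.08 ± 0.19 (adjusted p = 0.00725), and lost its call without DMSO replicate 2 or C59 replicate 3. Myh3 was 85.3, 68.5 and 78.9 CPM in the control libraries and 127, 126 and 206 CPM in the C59-treated libraries, at 0.98 ± 0.15 (adjusted p = 0.00302). Mybph was 9.83, 6.72 and 11 CPM in the control libraries and 21.8, 25.6 and 32.1 CPM in the C59-treated libraries, at 1.54 ± 0.17 (adjusted p = 0.000278), with the groups apart.

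At the Z-disc 3 of 7 genes rose at 24 h, and single genes rose at the M-band and in the calcium store. Actn2, the alpha-actinin of all striated muscle, was 30.6, 23 and 36.1 CPM in the control libraries and 71, 63.1 and 91.3 CPM in the C59-treated libraries, at 1.33 ± 0.15 (adjusted p = 0.000336). Tcap, telethonin, which caps titin at the Z-disc, was 0.515, 0.508 and 0.357 CPM in the control libraries and 1.25, 0.892 and 1.4 CPM in the C59-treated libraries, at 1.36 ± 0.34 (adjusted p = 0.0363), and its call was kept in 1 of the 6 fits without a library. Cryab was 5.2, 4.49 and 4.72 CPM in the control libraries and 8.54, 9.85 and 11.6 CPM in the C59-treated libraries, at 1.06 ± 0.14 (adjusted p = 0.00124). None of these 3 overlapped between groups. Myom3, an M-band myomesin, was 2.78, 2.23 and 3.69 CPM in the control libraries and 6.08, 6.44 and 7.6 CPM in the C59-treated libraries, at 1.21 ± 0.19 (adjusted p = 0.00337). Casq2, the calsequestrin that holds calcium in the reticulum, was 11.2, 11.7 and 14.9 CPM in the control libraries and 26.7, 24.7 and 37.5 CPM in the C59-treated libraries, at 1.23 ± 0.15 (adjusted p = 0.00063). Both were higher in every treated library. Ttn was 33.1, 22.2 and 23.9 CPM in the control libraries and 28, 28.1 and 64.8 CPM in the C59-treated libraries, at 0.61 ± 0.26 (adjusted p = 0.191), with C59 replicate 3 alone above the control range. Des was 26.5, 21.8 and 27.7 CPM in the control libraries and 36.2, 31.3 and 40.7 CPM in the C59-treated libraries, at 0.51 ± 0.11 (adjusted p = 0.0165), past the adjusted p but under the fold threshold.

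**Figure D2:**
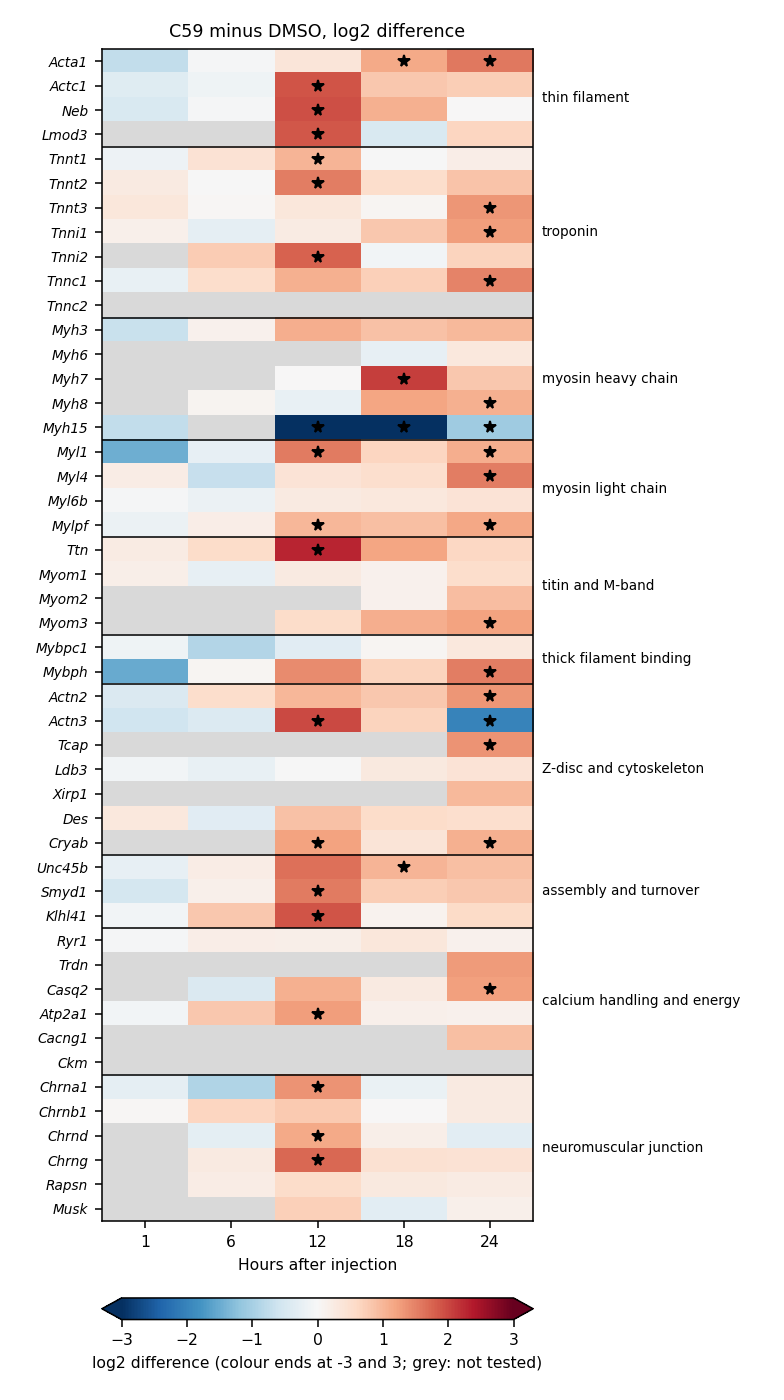
Log2 difference, C59 minus DMSO, of each of the 48 genes (rows, grouped by role) at 5 times after injection (columns); stars mark called genes and grey cells genes not tested. At 12 h 17 genes are starred as higher and at 24 h 14, in partly different rows, while Myh15 is lower at 12, 18 and 24 h and Actn3 changes sign.

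The neuromuscular junction genes were called between the treatments at 12 h and at no other time. Of the 6, Chrna1, Chrnd and Chrng rose. The embryonic gamma subunit, Chrng, was 0.948, 3.17 and 1.58 CPM in the control libraries and 6.97, 6.52 and 5.06 CPM in the C59-treated libraries, a difference of 1.71 ± 0.33 (adjusted p = 0.00165). Chrna1, the alpha subunit that binds acetylcholine, was 1.45, 3.06 and 2.04 CPM in the control libraries and 3.7, 6.68 and 5.98 CPM in the C59-treated libraries, at 1.34 ± 0.29 (adjusted p = 0.00347). Chrnd, the delta subunit, was 1.1, 0.501 and 1.02 CPM in the control libraries and 1.85, 2.1 and 1.84 CPM in the C59-treated libraries, at 1.14 ± 0.32 (adjusted p = 0.0135). The groups were apart in all 3. DMSO replicate 2 was the highest control for Chrng and Chrna1 and the lowest for Chrnd, and without it the Chrnd difference was 0.86, under the fold threshold.

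The remaining junction genes had smaller differences at 12 h. Chrnb1, the beta subunit, was 2.05, 3.17 and 2.26 CPM in the control libraries and 4.47, 4.58 and 3.77 CPM in the C59-treated libraries, at 0.78 ± 0.21 (adjusted p = 0.0118). Rapsn was 1.95, 1.95 and 1.3 CPM in the control libraries and 2.61, 2.9 and 2.12 CPM in the C59-treated libraries, at 0.55 ± 0.25 (adjusted p = 0.0933). Musk was 0.749, 1.06 and 0.283 CPM in the control libraries and 1.25, 1.51 and 0.69 CPM in the C59-treated libraries, at 0.72 ± 0.46 (adjusted p = 0.218). The groups did not overlap for Chrnb1 and Rapsn and did for Musk.

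At 6 h the difference in Chrna1 had the opposite sign. It was 1.95, 2.92 and 2.24 CPM in the control libraries and 1.21, 1.23 and 1.35 CPM in the C59-treated libraries, at -0.90 ± 0.26 (adjusted p = 0.0239), so every treated library was below every control, under the fold threshold. Chrnb1 was 1.91, 1.35 and 1.53 CPM in the control libraries and 2.37, 2.26 and 3.02 CPM in the C59-treated libraries, at 0.65 ± 0.24 (adjusted p = 0.076), with every treated library above the controls. Chrnd was 0.457, 0.521 and 1.53 CPM in the control libraries and 0.734, 0.687 and 0.541 CPM in the C59-treated libraries, at -0.29 ± 0.46 (adjusted p = 0.705). Chrng was 0.789, 0.729 and 1.18 CPM in the control libraries and 1.21, 1.23 and 0.766 CPM in the C59-treated libraries, at 0.26 ± 0.34 (adjusted p = 0.642). Rapsn was 0.581, 0.886 and 1.18 CPM in the control libraries and 1.04, 0.932 and 1.04 CPM in the C59-treated libraries, at 0.22 ± 0.34 (adjusted p = 0.702). These 3 overlapped between treatments. Musk, at 0.208, 0.104 and 0 CPM in the control libraries and 0.388, 0.245 and 0.27 CPM in the C59-treated libraries, did not pass the filter.

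At 18 h the log2 differences of the 6 genes lay between -0.31 and 0.45. Chrna1 was 6.44, 6.58 and 6.81 CPM in the control libraries and 4.07, 6.29 and 6.71 CPM in the C59-treated libraries. Chrng was 6.06, 5.3 and 5.35 CPM in the control libraries and 5.8, 6.79 and 9.92 CPM in the C59-treated libraries. Chrnb1 was 5.84, 5.7 and 4.86 CPM in the control libraries and 3.83, 6.29 and 6.18 CPM in the C59-treated libraries. In these subunits the groups overlapped. Chrnd was 2.43, 2.3 and 1.57 CPM in the control libraries and 2.06, 2.2 and 2.88 CPM in the C59-treated libraries. Rapsn was 3.19, 3.48 and 2.7 CPM in the control libraries and 2.06, 3.7 and 5.75 CPM in the C59-treated libraries. Musk was 1.95, 2.01 and 2.49 CPM in the control libraries and 1.82, 1.85 and 1.44 CPM in the C59-treated libraries. Musk was lower in every treated library, at -0.31 ± 0.23 (adjusted p = 0.442), and Chrnd and Rapsn overlapped.

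At 24 h the differences lay between -0.32 and 0.44. Chrng was 11.2, 9.57 and 9.79 CPM in the control libraries and 13, 12.5 and 15.9 CPM in the C59-treated libraries, at 0.44 ± 0.12 (adjusted p = 0.0448), past the adjusted p but under the fold threshold. Chrna1 was 12.1, 11.8 and 12.9 CPM in the control libraries and 14, 12.4 and 17.8 CPM in the C59-treated libraries. Chrnb1 was 6.9, 6.25 and 7.45 CPM in the control libraries and 7.46, 8.22 and 9.25 CPM in the C59-treated libraries. Chrng and Chrnb1 were higher in every treated library, and Chrna1 overlapped. Chrnd was 4.27, 4.49 and 4.32 CPM in the control libraries and 3.75, 3.3 and 3.39 CPM in the C59-treated libraries. Rapsn was 6.48, 7.81 and 7.45 CPM in the control libraries and 7.96, 8.46 and 9.25 CPM in the C59-treated libraries. Musk was 4.68, 4.22 and 4.8 CPM in the control libraries and 5.0, 3.76 and 6.44 CPM in the C59-treated libraries. Rapsn was higher and Chrnd lower in every treated library, and Musk overlapped.

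At 1 h Chrna1 had the highest level of the 6, at 3.08, 2.45 and 3.2 CPM in the control libraries and 2.69, 2.21 and 2.31 CPM in the C59-treated libraries. Chrnb1 was 1.21, 1.52 and 1.71 CPM in the control libraries and 1.58, 1.44 and 1.53 CPM in the C59-treated libraries. Both overlapped between treatments. Chrnd was 0.447, 0.343 and 0.356 CPM in the control libraries and 0.308, 0.462 and 0.0526 CPM in the C59-treated libraries, and Chrng was 0.313, 0.49 and 0.605 CPM in the control libraries and 0.044, 0.462 and 0.0526 CPM in the C59-treated libraries. Neither passed the filter. Rapsn was 0.0447, 0.049 and 0.0356 CPM in the control libraries and 0.44, 0.36 and 0.736 CPM in the C59-treated libraries, or 3 counts against 31, a ratio of 12.0 (95% counting interval 3.73 to 61.2, which covers counting error only). It was higher in all 3 treated libraries but did not pass the filter either. Musk had 0 counts in DMSO and 1 after C59.

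The actins, embryonic myosin, titin and desmin were measured from low levels at the first times. At 1 h Actc1 was 3.3, 7.11 and 11 CPM in the control libraries and 5.02, 6.99 and 4.73 CPM in the C59-treated libraries. Acta1 was 0.357, 1.32 and 1.89 CPM in the control libraries and 1.1, 0.565 and 0.473 CPM in the C59-treated libraries. Myh3 was 1.52, 4.56 and 8.18 CPM in the control libraries and 3.35, 2.26 and 3.47 CPM in the C59-treated libraries. In all 3 DMSO replicate 1 was the lowest control. Ttn was 0.536, 1.81 and 2.17 CPM in the control libraries and 2.2, 1.85 and 1.31 CPM in the C59-treated libraries. Des was 4.11, 4.61 and 6.19 CPM in the control libraries and 7.4, 5.75 and 5.47 CPM in the C59-treated libraries. The groups overlapped in all 5 genes at 1 h. At 6 h Acta1 was 1.25, 2.08 and 1.24 CPM in the control libraries and 0.216, 3.09 and 1.26 CPM in the C59-treated libraries. Myh3 was 4.36, 6.88 and 4.31 CPM in the control libraries and 1.08, 9.66 and 6.49 CPM in the C59-treated libraries. C59 replicate 1 was the lowest library in both. Ttn was 1.49, 3.02 and 1.65 CPM in the control libraries and 1.17, 4.17 and 3.78 CPM in the C59-treated libraries. Des was 5.4, 7.61 and 4.78 CPM in the control libraries and 3.02, 6.18 and 5.0 CPM in the C59-treated libraries. Again the groups overlapped in each of these genes.

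Actn3 and Myh15 did not follow the rest. Actn3 (chromosome 19, mm10 positions 4861216 to 4877909) was higher after C59 at 12 h and lower at 24 h. At 1 h it was 2.32, 3.28 and 2.7 CPM in the control libraries and 3.04, 1.39 and 0.894 CPM in the C59-treated libraries. At 6 h it was 2.62, 3.49 and 1.89 CPM in the control libraries and 1.77, 2.94 and 1.4 CPM in the C59-treated libraries. At 18 h it was 3.25, 5.06 and 3.4 CPM in the control libraries and 3.98, 5.29 and 9.59 CPM in the C59-treated libraries. Its groups overlapped at those 3 times and stood apart at 12 h. At 24 h Actn3 was 12, 13.1 and 15.5 CPM in the control libraries and 2.46, 3.26 and 4.55 CPM in the C59-treated libraries, a difference of -1.99 ± 0.18 (adjusted p = 8.73e-05), with every treated library below every control. Both calls of Actn3 were kept in every alternative fit. Its relative Actn2 was higher at 24 h, as given above.

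Myh15, a divergent myosin heavy chain (chromosome 16, mm10 positions 49057486 to 49199104), was lower at every time at which it was called. At 1 h it was 2.01, 1.57 and 1.17 CPM in the control libraries and 0.572, 1.34 and 0.947 CPM in the C59-treated libraries, at -0.74 ± 0.35 (adjusted p = 0.297). At 6 h it was 0.664, 0.469 and 0.708 CPM in the control libraries and 0.302, 0 and 0.18 CPM in the C59-treated libraries, with 37 counts against 11, and did not pass the filter. The groups overlapped at 1 h, and at 6 h every treated library was below every control. At 12 h Myh15 was 0.799, 1.06 and 0.962 CPM in the control libraries and 0, 0.042 and 0 CPM in the C59-treated libraries, which is 52 counts in the controls against 1 after C59, a ratio of 59.7 in favor of the controls (95% counting interval 10.2 to 2402, adjusted p = 0.000133). At 18 h it was 2.92, 2.7 and 2.27 CPM in the control libraries and 0.187, 0.40 and 0.0959 CPM in the C59-treated libraries, at -3.5 ± 0.39 (adjusted p = 0.00219). At 12 and 18 h Myh15 passed the filter on low counts only through the controls, where it was high. These 2 tests could therefore hardly have shown a rise. At 24 h it was 5.46, 7.38 and 5.75 CPM in the control libraries and 3.04, 3.49 and 2.33 CPM in the C59-treated libraries, at -1.06 ± 0.19 (adjusted p = 0.00779), under the fold threshold without DMSO replicate 2 or C59 replicate 3. Treated libraries were thus higher at 24 h than at 18 h but below every control of their own time. Myh15 was at or below 0.763 FPKM in every library, and on the log2(FPKM + 1) scale without a filter its differences at 12 and 18 h were -0.14 and -0.31, under the fold threshold.

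**Figure D3:**
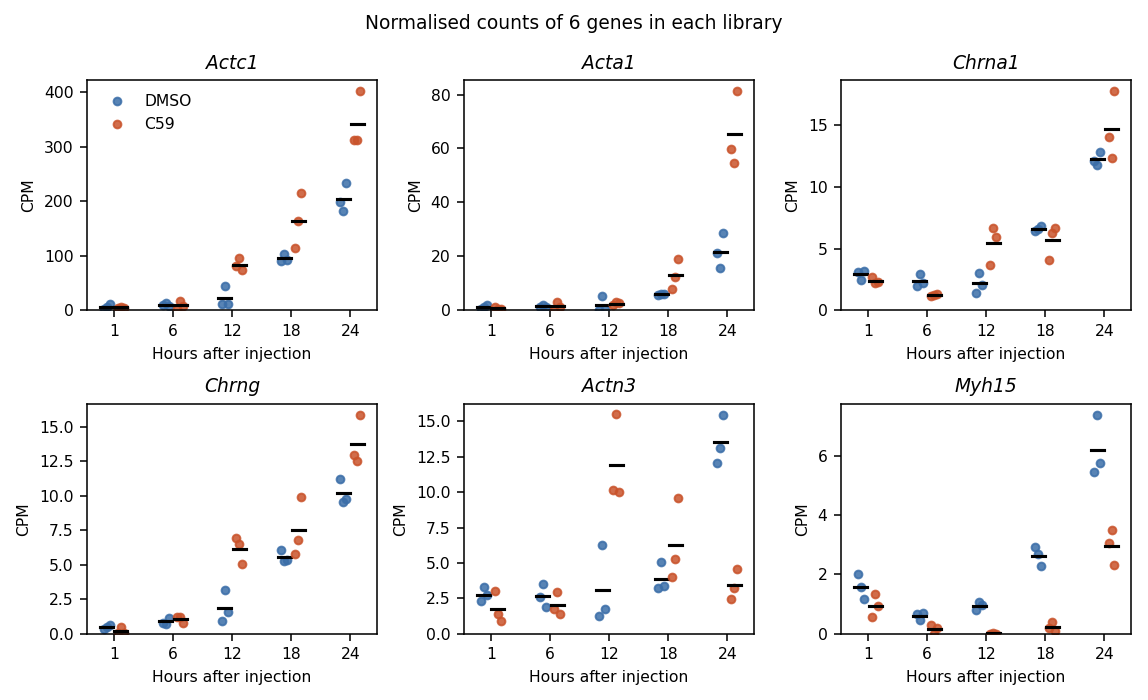
Normalized counts (CPM) of Actc1, Acta1, Chrna1, Chrng, Actn3 and Myh15 in each library against hours after injection; points are libraries and black bars group means. Chrna1 lies below the controls at 6 h and above them at 12 h, and Chrng lies above them at 12 and 24 h. Actc1 separates at 12, 18 and 24 h and Acta1 at 18 and 24 h. Actn3 is higher after C59 at 12 h and lower at 24 h, and Myh15 is lower from 6 h on. Points that separate do not always belong to a called gene.

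The change of the C59 effect between successive times was tested as an interaction over 12 libraries. From 6 to 12 h the effect became more positive for 2 of 40 members, where 1.89% of all genes changed, namely Actn3 by 2.38 ± 0.62 (adjusted p = 0.0136) and Chrna1 by 2.24 ± 0.41 (adjusted p = 0.00118). Both kept the call whichever library was left out, and the count was 18 without DMSO 12 h replicate 2 and 6 without C59 6 h replicate 2. From 12 to 18 h it became more negative for 5 of 42, beside 2.09% of all genes. These were Chrna1 at -1.53 ± 0.38 (adjusted p = 0.0224), Klhl41 at -1.76 ± 0.40 (adjusted p = 0.0144), Tnni2 at -1.85 ± 0.53 (adjusted p = 0.0446), Atp2a1 at -1.09 ± 0.28 (adjusted p = 0.0261) and Tnnt1 at -1.03 ± 0.27 (adjusted p = 0.0313). Klhl41 alone kept its call in all 12 fits without a library. The count was 14 without DMSO 12 h replicate 2, and from 1 to 3 without DMSO 12 h replicate 1 or 3, C59 12 h replicate 1 or 2, any of the DMSO 18 h libraries or C59 18 h replicate 1. From 18 to 24 h it changed for 3 of 46, beside 1.27% of all genes. Tnnt3 changed by 1.26 ± 0.34 (adjusted p = 0.0436), Myh15 by 2.44 ± 0.44 (adjusted p = 0.00592) and Actn3 by -2.67 ± 0.42 (adjusted p = 0.00253). Tnnt3 kept its call in 4 of 12 such fits and the other two in all 12, though on log2(FPKM + 1) the Myh15 change was -0.0168. The count was 6 without C59 18 h replicate 3.

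C59-treated buds at 12 h were also set against DMSO buds at 18 h, which were collected 6 h later after injection. Summed levels were 326 to 437 CPM in the former and 405 to 492 in the latter. The median difference over 42 members was -0.29, with 1 higher and 4 lower, 2.59% of all genes being called in this comparison. Actn3 was higher by 1.6 ± 0.23 (adjusted p = 0.000884). Acta1 at -1.2 ± 0.17 (adjusted p = 0.00104), Myl4 at -1.12 ± 0.30 (adjusted p = 0.019) and Casq2 at -1.09 ± 0.21 (adjusted p = 0.00397) were lower, and so was Myh15, with 1 count against 197. These comparisons share their libraries with those at 12 and 18 h. Of the 18 genes called at 12 h, Actn3 and Myh15 were called here too. Actc1 measured -0.16 in this comparison, Ttn 0.07, Neb 0.01 and Chrng 0.19, none of them called. Without C59 12 h replicate 2 the count was 8 with 7 lower, and without DMSO 18 h replicate 2 it was 3.

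Other sarcomere and junction genes were followed as a list of 56 that holds none of the members. At 12 h 35 were tested and 5 rose, among them the MUSK activator Dok7 at 1.42 ± 0.26 (adjusted p = 0.00123) and the muscle ubiquitin ligases Trim55 at 2.17 ± 0.51 (adjusted p = 0.00541) and Trim63 at 1.23 ± 0.30 (adjusted p = 0.00616). None fell, and the median over the 35 was 0.43. At 24 h 46 were tested and 6 rose, with a median of 0.34. These included the calcineurin-binding Z-disc protein Myoz2 at 1.5 ± 0.22 (adjusted p = 0.00217), myotilin (Myot) at 1.42 ± 0.25 (adjusted p = 0.00639), sarcolipin (Sln), an inhibitor of the SERCA pump, at 1.3 ± 0.23 (adjusted p = 0.00682), and the muscle LIM protein Csrp3 at 1.45 ± 0.27 (adjusted p = 0.00868). At 1 h the tropomyosin gene Tpm3, widely expressed outside muscle and with near-identical copies that can share its reads, was lower at -1.07 ± 0.05 (adjusted p = 2.35e-08), and at 6 h the Z-disc gene Pdlim3 was lower at -1.17 ± 0.31 (adjusted p = 0.0184).

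Of 23 regulators of muscle identity and fusion, 21 were tested at 12 h, 4 rose and 2 fell. In order of adjusted p they were led by Pax3, the progenitor factor, at -2.04 ± 0.18 (adjusted p = 8.28e-06), the splicing regulator Rbm24 at 1.06 ± 0.10 (adjusted p = 1.51e-05), myomixer (Mymx), which fuses myoblasts, at 1.89 ± 0.21 (adjusted p = 4.63e-05), and Lbx1, needed for progenitor migration, at -1.15 ± 0.14 (adjusted p = 9.31e-05). At 12 h Myog was 18.4, 36.8 and 15.8 CPM in the control libraries and 70.3, 76.9 and 61.8 CPM in the C59-treated libraries, a difference of 1.56 ± 0.23 (adjusted p = 0.000329). Myod1 was 24.4, 30.6 and 24.1 CPM in the control libraries and 43.7, 42.2 and 29.8 CPM in the C59-treated libraries, at 0.55 ± 0.14 (adjusted p = 0.00832). Myog was above every control and Myod1 overlapped them. At 18 h 21 regulators were tested, none rose and 4 fell, with a median of -0.35. These were Lbx1 at -1.61 ± 0.12 (adjusted p = 0.000623), Pax3 at -1.33 ± 0.17 (adjusted p = 0.0036), the myogenic factor Myf5 at -1.13 ± 0.13 (adjusted p = 0.00229) and Met, the receptor that progenitors need to migrate, at -1.07 ± 0.14 (adjusted p = 0.00478). At 24 h 22 were tested, none rose and 1 fell, Pax3 at -1.29 ± 0.17 (adjusted p = 0.00124), with a median of -0.17. By 24 h Myog measured -0.05 ± 0.07 (adjusted p = 0.754) and Myod1 -0.38 ± 0.08 (adjusted p = 0.0179), and neither was called.

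Tnnc2 and Ckm passed the filter on counts in no comparison. Ckm, muscle creatine kinase, which buffers ATP in mature fibers, had 30 counts over all libraries. Tnnc2, fast troponin C, had 3, yet the FPKM table gave it clear levels. At 1 h its FPKM was 0.0997, 0.477 and 0.999 in DMSO and 0.236, 0.165 and 0.284 in C59-treated buds. At 24 h it was 10.7, 7.18 and 9.13 in DMSO and 22, 19.2 and 27.1 after C59, and the groups were apart. Tnnc2 has 800 exonic bases (chromosome 2, mm10 positions 164777161 to 164779741), of which 592 overlap Ube2c on the other strand, and whether this set its count was not tested. At 12 h its FPKM was 0.164, 2.66 and 0.0623 in DMSO, where replicate 2 was the high one, and 1.85, 2.37 and 2.47 after C59. At 18 h it was 2.68, 3.31 and 3.28 in DMSO and 5.16, 5.9 and 11.4 after C59. Fitted with limma on log2(FPKM + 1), an alternative chosen after seeing the data, the difference was 0.96 ± 0.39 at 12 h (adjusted p = 0.0646), 0.98 ± 0.23 at 18 h (adjusted p = 0.0370) and 1.25 ± 0.14 at 24 h (adjusted p = 0.00106), so Tnnc2 passed both thresholds at 24 h. On log2(FPKM + 0.1) it passed both at 18 h too, at 1.17 ± 0.26 (adjusted p = 0.0330). Without DMSO 12 h replicate 2 it passed both at 12 h too, at 1.53. The FPKM of Tnnc1 at 24 h was 17.4, 15.1 and 20.2 in DMSO and 49.3, 40.5 and 59.1 after C59.

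**Figure D4:**
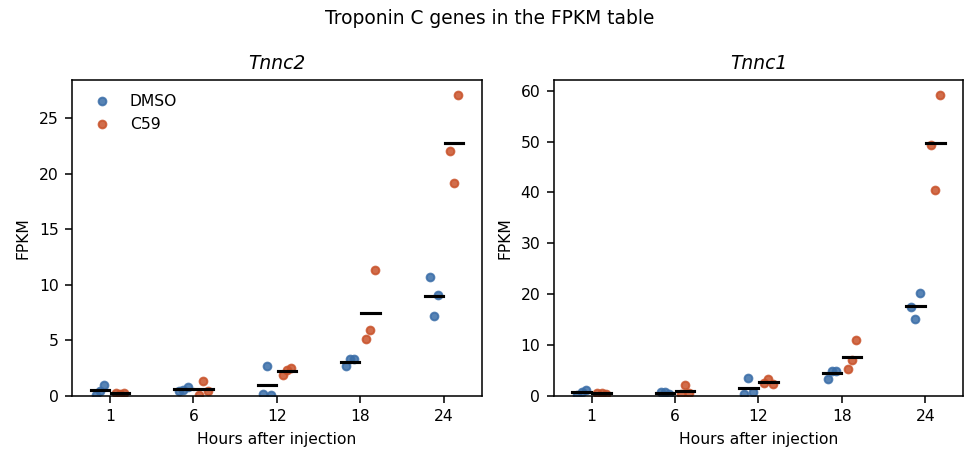
FPKM of Tnnc2 and Tnnc1 in each library against hours after injection; points are libraries and black bars group means. Tnnc2 rises to 7.18 to 10.7 FPKM in DMSO and 19.2 to 27.1 FPKM in C59-treated buds at 24 h, although it has 3 counts in the count table.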

How the data were processed

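PolyA RNA of forelimb buds was sequenced in 30 libraries, 3 per treatment and time. The authors aligned reads to mouse mm10 and deposited raw counts per gene, computed during mapping, and Cufflinks FPKM values computed as unstranded; per the submitters' processing notes, cutadapt 1.16, STAR 2.7.0e, Cufflinks 2.2.1 and deepTools 3.5.5 were used. The strand setting of the counts is not given in the sources used here. Libraries held 18188636 to 38974885 counts (median 21597120).

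Deposited counts of protein-coding autosomal genes (GENCODE M21) were tested per time point on its 6 libraries with edgeR 4.0.16 (quasi-likelihood F test, TMM, minimum count 10 and minimum total 15 in filterByExpr, R 4.3.3), and changes of effect as interactions over 12 libraries. P-values were Benjamini-Hochberg adjusted over all genes tested, and a gene was called at adjusted p below 0.05 and an absolute log2 difference above 1. Some called members passed the filter only through the group where they were high. Examples are Lmod3, Tnni2 and Myh15 at 12 h and Myh7 and Myh15 at 18 h. Differences are C59 minus DMSO, with standard errors. Per the study's methods, replicates were different embryos and each condition and time drew on several litters. Which library came from which litter is not given in the sources used here. The deposited FPKM served for levels per length and, with limma 3.58.1 on log2(FPKM + 1) or log2(FPKM + 0.1) for genes at 0.5 FPKM or more in at least 3 libraries, as an alternative. DESeq2 1.42.0, other scalings, no filter, no minimum fold, all genes, a fit over all 30 libraries, a replicate block and each library left out were further alternatives. The procedure was tested on simulated counts. The members, lists and tests were chosen with earlier results of these data known. Values per library are given for members called at that time, for the junction genes, and for Actc1, Acta1, Myh3, Ttn and Des. Intervals and floors cover counting error only. Some genes of the lists that are not members are not reported here.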

Additional observations from a re-analysis of the deposited data

Results flagged for a closer look

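Several genes had a C59 effect that differed between successive times, by an interaction test in edgeR with adjustment over all genes. From 6 to 12 h the effect changed by 2.38 ± 0.62 (adjusted p = 0.0136) for Actn3 and by 2.24 ± 0.41 (adjusted p = 0.00118) for Chrna1. From 12 to 18 h it changed by -1.09 ± 0.28 (adjusted p = 0.0261) for Atp2a1, -1.53 ± 0.38 (adjusted p = 0.0224) for Chrna1, -1.76 ± 0.40 (adjusted p = 0.0144) for Klhl41, -1.85 ± 0.53 (adjusted p = 0.0446) for Tnni2 and -1.03 ± 0.27 (adjusted p = 0.0313) for Tnnt1. From 18 to 24 h it changed by -2.67 ± 0.42 (adjusted p = 0.00253) for Actn3, 2.44 ± 0.44 (adjusted p = 0.00592) for Myh15 and 1.26 ± 0.34 (adjusted p = 0.0436) for Tnnt3.

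Tnnc2 stood out because it was near absent from the count table, with 3 counts, and present in the FPKM table, with a mean of 22.8 FPKM in C59-treated buds at 24 h.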

How the results depend on the processing

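Of 4387 alternative values for single genes, 4123 kept direction and side of the thresholds, 207 no longer passed, 55 newly passed and 2 reversed. Both reversals were the 18 to 24 h change of effect of Myh15, -0.0168 on the log2(FPKM + 1) scale with and without the filter, against 2.44 from counts. Called members numbered 0 at 1 h, with 1 without a filter and 1 when all 30 libraries shared the spread, and 0 at 6 h, with 1 when all 30 libraries shared the spread. On log2(FPKM + 1) with and without a filter the counts were 7 and 6 at 12 h (18 from edgeR), 0 and 0 at 18 h (4), 1 and 1 for C59 12 h against DMSO 18 h (5), and 2 and 1 for the 12 to 18 h change (5). Without a filter on that scale the 18 to 24 h change gave 1 (3). On log2(FPKM + 0.1) there were 2 at 18 h and 3 for C59 12 h against DMSO 18 h. With no minimum fold the counts were 3 at 6 h, 8 at 18 h, 26 at 24 h and 11 for C59 12 h against DMSO 18 h. For the 6 to 12 h change (2), no filter gave 5, the spread shared over all 30 libraries 5 and the replicate block 8. DESeq2 gave 5 for the 18 to 24 h change.

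With 1 library left out the counts ran from 0 to 2 at 1 h and at 6 h, 14 to 28 at 12 h, 1 to 8 at 18 h and 10 to 19 at 24 h. They ran from 43 to 44 for DMSO and 44 to 45 for C59 between 1 and 24 h, from 3 to 8 for C59 12 h against DMSO 18 h, and from 2 to 18, 1 to 14 and 2 to 6 for the successive changes of effect. The last 6 came without C59 18 h replicate 3. Same-numbered samples did not deviate together at every time (correlations from -0.256 to 0.154), so the numbers were not taken to pair samples. At 12 h, though, the same-numbered correlations were all positive (0.0426, 0.107 and 0.154), while those of other pairs ran from -0.112 to 0.0177. With the replicate block the counts were 23 at 12 h, 4 for the 12 to 18 h change and 3 for the 18 to 24 h change. The filter left from 2 to 19 members untested per comparison, and without it the counts were 19, 5 and 16 at 12, 18 and 24 h. The causes were not tested.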
